A study of Mus musculus with 15 samples.

Results

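Hippocampal gene expression of newborn mice given mild stress together with the saline vehicle was set against that of untreated pups. By the treatment named for each sample, 3 of the study's 15 pups had mild stress with saline (MSS) and 3 were untreated controls (CC). All were male C57BL/6 mice, treatment ran over postnatal days 5 to 9 with birth counted as day 1, and the right hippocampus was taken on day 9 from litters of at most 7 pups per dam. The other pups, 3 per group, received morphine, an opioid, with mild stress (MSM), saline with severe stress (SSS) or morphine with severe stress (SSM). The sources used here do not say what the mild stress consisted of, how much saline was given or which litter a pup came from. MSS pups therefore differ from CC pups in stress and in vehicle at once, and these cannot be told apart. Each RNA was measured on 1 Affymetrix array (Mouse Gene 1.0 ST), a type that carries probes along the exons of each gene, and values are log2 intensities. Of 35557 probe sets, 21789 carried exactly 1 gene symbol, and the one with the highest mean over the 15 arrays stood for its gene, which left 19938 genes.

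The hippocampus forms memories of places and events, and in the mouse it is still being built in the days after birth, when granule neurons of the dentate gyrus are born and synapses form. It carries many receptors for corticosterone, the adrenal hormone that stress releases. The glucocorticoid receptor switches on target genes such as Fkbp5 when hormone is bound, while neuronal activity briefly induces immediate early genes such as Fos. In the newborn rodent the adrenal response to stress is damped for a time.

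Genes of tissue that borders the hippocampus varied between single arrays. Ttr, or transthyretin, a carrier of thyroid hormone secreted by choroid plexus epithelium, was 9.17, 8.99 and 13.05 in MSS pups, against 12.65, 13.03 and 12.82 in CC pups. MSS replicates 1 and 2 were low and MSS replicate 3 was as high as the CC arrays. Penk, the enkephalin precursor and abundant in the striatum, was 7.18, 6.92 and 8.09 in MSS pups, against 10.08, 7.31 and 7.35 in CC pups, so that CC replicate 1 stood apart. Dentate granule and pyramidal neuron genes were present on all 6 arrays: Prox1, a transcription factor of dentate granule neurons, was 8.92, 8.94 and 8.94 in MSS pups, against 8.62, 8.94 and 8.55 in CC pups, and Slc17a7, the vesicular glutamate transporter of excitatory neurons, was 11.19, 11.38 and 11.21 in MSS pups, against 10.98, 11.23 and 11.26 in CC pups. The 6 arrays correlated with one another across genes at 0.996 to 0.998, both within and between groups. The titles give every MSS array the SS number 11 and every CC array the SS number 12, a number of unstated meaning, so whatever it marks cannot be told apart from the group.

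Across the whole transcriptome the MSS and CC hippocampi could not be separated gene by gene. None of the 19938 genes passed the threshold of 0.05 after Benjamini-Hochberg adjustment in limma (0%, smallest adjusted p = 1.00). At an unadjusted p under 0.05 there were 442 genes (2.22%), of which 211 had the higher mean in MSS (1.06%) and 231 the lower (1.16%). With each array centred on its median there were 417 higher and 247 lower. Over all genes, 48.6% had the higher and 51.4% the lower mean in MSS. In 1876 genes (9.41%) all 3 MSS arrays lay on one side of all 3 CC arrays, 862 above (4.32%) and 1014 below (5.09%). The median difference, MSS minus CC, was -0.0024. Sign went with brightness: 60.3% of the 10590 genes with a mean of at least 6 had the lower mean in MSS, against 41.3% of the 9348 dimmer genes. With each array centred on its median the shares were 54% and 34.6%. After quantile normalization they were 50% and 49.2%, but near-even shares follow from giving every array the same distribution. The intervals were narrow for most genes: the 95% confidence interval of the difference lay within 0.5 of 0 on the log2 scale for 19287 genes (96.7%). The largest positive difference was 0.87, of Tmem267, and the largest negative one was -2.43, of Ttr. Since pups are not tied to litters, p-values measure the spread among these arrays only. For a single gene an exact permutation test of 3 against 3 cannot go below p = 0.1, which it reaches when the groups do not overlap. Where nothing differs, shares near 0.05 and 0.1 of the genes would meet the 2 criteria. The shares found, 2.22% and 9.41%, were both smaller.

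**Figure D1:**
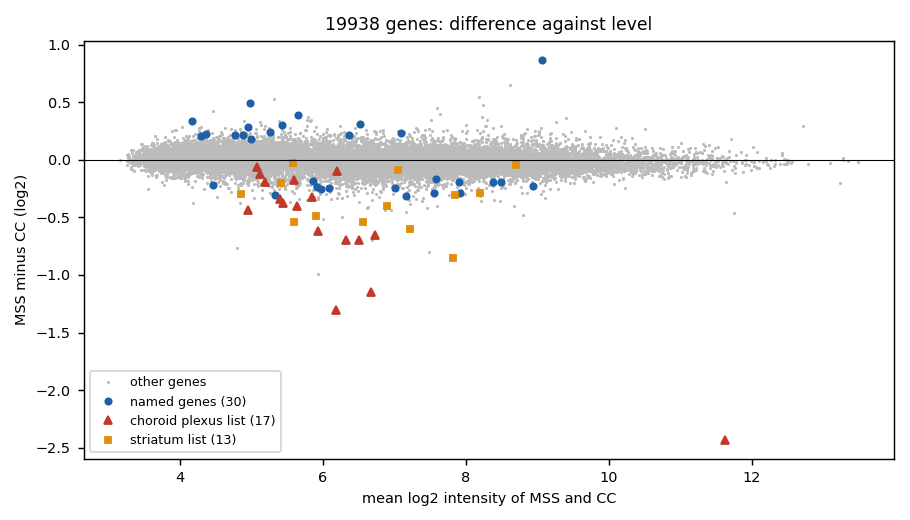
Difference MSS minus CC on the log2 scale (vertical) against the mean log2 intensity of both groups (horizontal) for 19938 genes, each a point. Ttr lies at -2.43 and Tmem267 at 0.87, and the 17 choroid plexus and 13 striatum genes all lie below 0.

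With no gene past the threshold, the genes named next are those with the smallest p among genes whose groups did not overlap, 15 with the higher and 15 with the lower mean in MSS, given as values. Adjusted p was 1.00 for each of them. The lack of overlap is part of how they were picked.

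Tmem267, a transmembrane protein gene on chromosome 13, was 9.44, 9.87 and 9.20 in MSS pups, against 8.44, 8.74 and 8.72 in CC pups. Every MSS array was above every CC array, with a difference of 0.87 (SE 0.19, 95% interval 0.45 to 1.28). Its means in the other handled groups were 8.97 in MSM, 8.57 in SSS and 8.53 in SSM. Against the mean of those 3 groups the MSS difference was 0.81 (SE 0.16), with an adjusted p of 0.688 in limma. Without MSS replicates 1 and 2 the difference from CC was 0.57.

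Dnajb6 codes for a co-chaperone that works with Hsp70 and keeps proteins from aggregating. It was 5.17, 5.39 and 5.11 in MSS pups, against 4.94, 4.62 and 4.62 in CC pups. The highest CC array, replicate 1, stayed under the lowest MSS array, and the fit gave a difference of 0.49 (SE 0.11, 95% interval 0.27 to 0.72). MSM pups, which shared the mild stress, were at 4.75, 4.77 and 4.99, and MSM minus MSS was -0.38 (SE 0.11). Tbrg3, a gene named for regulation by transforming growth factor beta, was 5.85, 5.90 and 5.76 in MSS pups, against 5.51, 5.31 and 5.53 in CC pups. All MSS arrays were above all CC arrays, and its fit gave a difference of 0.39 (SE 0.089, 95% interval 0.20 to 0.58).

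Npff codes for the precursor of neuropeptide FF, a peptide that modulates opioid effects. It was 5.52, 5.52 and 5.67 in MSS pups, against 5.41, 5.23 and 5.18 in CC pups, with a difference of 0.30 (SE 0.091, 95% interval 0.11 to 0.50). Its mean in MSM was close to that in MSS, with MSM minus MSS at 0.085 (SE 0.091). Itga7, an integrin subunit that binds laminin, was 6.61, 6.84 and 6.57 in MSS pups, against 6.47, 6.28 and 6.31 in CC pups, with a difference of 0.31 (SE 0.10, 95% interval 0.11 to 0.52). MSS replicate 2 was the highest of the 6 arrays. Twistnb, a subunit of RNA polymerase I, which makes ribosomal RNA, was 7.20, 7.15 and 7.25 in MSS pups, against 7.08, 6.91 and 6.92 in CC pups, with a difference of 0.23 (SE 0.071, 95% interval 0.080 to 0.39). Atg10, the enzyme that joins Atg12 to Atg5 in autophagy, was 6.58, 6.41 and 6.44 in MSS pups, against 6.16, 6.27 and 6.34 in CC pups, with a difference of 0.22 (SE 0.069, 95% interval 0.067 to 0.36).

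The other 8 genes with the higher mean were Sbpl, Lce3b of the skin's cornified envelope, BC055324, the pseudogene Phf8-ps, the posterior homeobox gene Hoxd9, the cell adhesion gene Ceacam2, Fam162b and Tifab. Their differences ran from 0.18 in Tifab to 0.34 in Lce3b. All 8 had means under 6, the limit used for the filter on dim genes, as did Dnajb6, Tbrg3 and Npff. While these 15 were collected, 6 further genes were passed over by type, 2 of them microRNAs, 1 small nucleolar RNA, 2 RIKEN clones and 1 olfactory receptor.

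Of the 15 genes with the lower mean in MSS, Pold3, an accessory subunit of the replicative DNA polymerase delta, was 7.12, 6.92 and 6.95 in MSS pups, against 7.32, 7.41 and 7.21 in CC pups. The groups did not touch, and the fit gave a difference of -0.31 (SE 0.087, 95% interval -0.50 to -0.13). MSM minus MSS was 0.23 (SE 0.087). Etaa1 binds single-stranded DNA-binding protein RPA at stalled forks and activates the checkpoint kinase ATR. It was 5.27, 5.16 and 5.10 in MSS pups, against 5.54, 5.46 and 5.47 in CC pups, with a difference of -0.31 (SE 0.086, 95% interval -0.49 to -0.13). Rnaseh2a, the catalytic subunit of the nuclease that removes ribonucleotides from DNA, was 7.79, 7.84 and 7.77 in MSS pups, against 7.97, 8.10 and 7.91 in CC pups, with a difference of -0.19 (SE 0.064, 95% interval -0.33 to -0.057).

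Mitochondrial proteins were the products of Mrpl34, Chchd3 and Txn2. Mrpl34, of the large subunit of the mitochondrial ribosome, was 7.42, 7.30 and 7.49 in MSS pups, against 7.59, 7.59 and 7.91 in CC pups. CC replicate 3 was well above the other 2 CC arrays, and the difference was -0.29 (SE 0.081, 95% interval -0.46 to -0.12). Chchd3 is a subunit of the complex that shapes the cristae. It was 8.38, 8.39 and 8.41 in MSS pups, against 8.55, 8.62 and 8.60 in CC pups, with a difference of -0.20 (SE 0.055, 95% interval -0.31 to -0.078), and the 3 arrays of each group lay close together. Txn2, the mitochondrial thioredoxin, was 8.29, 8.30 and 8.24 in MSS pups, against 8.44, 8.47 and 8.50 in CC pups, with a difference of -0.19 (SE 0.055, 95% interval -0.31 to -0.073). MSS minus the mean of MSM, SSS and SSM was -0.18 (SE 0.045) for Chchd3 and -0.17 (SE 0.045) for Txn2. Over the 15 named genes with the lower mean this difference ran from -0.25 in Zbtb2 to -0.075 in Etaa1. Over the 15 with the higher mean it ran from 0.81 in Tmem267 to 0.0071 (SE 0.058) in Twistnb, and it was 0.065 (SE 0.057) in Atg10.

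H13, the signal peptide peptidase of the endoplasmic reticulum, was 8.75, 8.75 and 8.98 in MSS pups, against 9.03, 9.06 and 9.05 in CC pups. Both MSS replicates with low Ttr were lowest, MSS replicate 3 came near the CC arrays, and the difference was -0.22 (SE 0.065, 95% interval -0.36 to -0.084). Dimt1, which methylates the RNA of the small ribosomal subunit, was 5.81, 6.02 and 6.06 in MSS pups, against 6.28, 6.20 and 6.15 in CC pups, with a difference of -0.24 (SE 0.077, 95% interval -0.41 to -0.079). Kbtbd7, an adaptor of a cullin ubiquitin ligase, was 7.51, 7.48 and 7.51 in MSS pups, against 7.62, 7.67 and 7.71 in CC pups, with a difference of -0.16 (SE 0.052, 95% interval -0.28 to -0.054). The remaining genes were Ascc1, Msl3l2, Zbtb2, Slc22a15, Ces2b and Scoc, with differences from -0.29 in Scoc to -0.19 in Msl3l2. Zbtb2 and Scoc each had a second probe set with 1 symbol, which differed by -0.018 for Zbtb2 and 0.052 for Scoc, against -0.23 and -0.29 on the probe sets used.

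**Figure D2:**
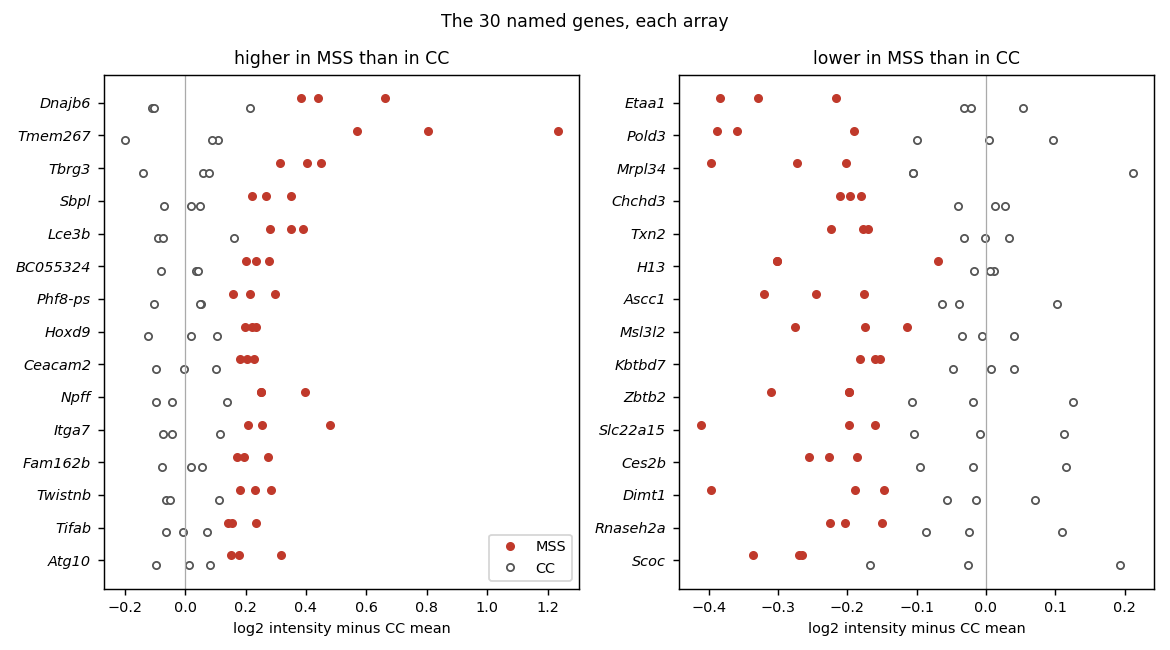
Log2 intensity minus the CC mean (horizontal) of each MSS array (filled) and CC array (open) for the 15 named genes with the higher mean in MSS (left) and the 15 with the lower mean (right). Tmem267 has the widest gap, and the MSS points of Chchd3 nearly coincide (SD 0.015).

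Among the fits of MSS against CC, the only call was Galntl6, which lies outside this rule. It belongs to a family of enzymes that start O-linked sugar chains and was 8.43, 8.46 and 8.45 in MSS pups, against 7.68, 7.60 and 8.44 in CC pups. CC replicate 3 was level with the MSS arrays, so the groups overlapped, and the difference was 0.54 (SE 0.15, adjusted p = 1.00 in limma). Means in the other handled groups were 8.40 in MSM, 8.43 in SSS and 8.52 in SSM. MSS minus the mean of those groups was 0.00084 (SE 0.13), and CC replicates 1 and 2 were the lowest of all 15 arrays. Without CC replicate 3 the difference from CC was 0.81 with an adjusted p of 0.00113 in limma, the 1 gene past the threshold in that fit. Its other 2 probe sets differed by 0.26 and 0.22. Galntl6 was chosen after its values were seen.

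Genes of the cell cycle had mostly lower means in MSS. Of 19 measured members of the list, 18 had the lower mean in MSS (94.7%, against 51.4% of all genes and 60.3% of those with a mean of at least 6), and the median difference was -0.13, against -0.0024 over all genes. In 4 of them the groups did not overlap, all 4 lower in MSS (21.1%, against 5.09% of all genes), and 3 had an unadjusted p under 0.05 (15.8%, against 2.22%). None passed the adjusted threshold. Mcm3, a subunit of the helicase that opens replication origins, was 6.02, 6.35 and 6.35 in MSS pups, against 6.49, 6.47 and 6.43 in CC pups. MSS replicate 1 was far below the other 2, and the fit gave a difference of -0.23 (SE 0.10, 95% interval -0.43 to -0.021). Aurkb, the kinase of the chromosomal passenger complex, was 5.59, 5.88 and 5.91 in MSS pups, against 6.11, 5.92 and 5.96 in CC pups, with a difference of -0.21 (SE 0.089, 95% interval -0.40 to -0.018). Rrm2, a subunit of the enzyme that makes deoxyribonucleotides, was 6.36, 6.48 and 6.63 in MSS pups, against 6.75, 6.73 and 6.60 in CC pups, with a difference of -0.20 (SE 0.091, 95% interval -0.40 to -0.0094). Top2a, the topoisomerase that untangles chromosomes before division, was 6.63, 6.85 and 6.93 in MSS pups, against 7.02, 7.01 and 6.94 in CC pups, with a difference of -0.19 (SE 0.10, 95% interval -0.40 to 0.023). Aurka was the 1 member with the higher mean. After quantile normalization 18 of 19 were lower as well, with a median of -0.11. Without MSS replicates 1 and 2, which had low choroid plexus genes, 1 MSS array was left, 12 of 19 members were lower and the median was -0.028. With the mean of the choroid plexus genes as a covariate, 17 of 19 were lower and the median was -0.074. The part of choroid plexus RNA in the cell cycle values was not tested further. In bulk tissue, fewer cells of a type and less RNA per cell cannot be told apart.

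Many genes of cell division share a pair of promoter elements, the CHR (TTTGAA) and the CCAAT box (CCAAT), which were searched for on both strands in the 250 bases before the start of each gene in RefSeq (GRCm38.p6). A promoter was found for 16 cell cycle genes, of which 15 held a CCAAT box (93.8%, against 38.8% of 15614 genes tested) and 6 a CHR (37.5%, against 15.7%). The promoter of Top2a, at chr11:99024190-99024439 on the minus strand, is shown because it holds both, with 2 CHR matches and 6 CCAAT box matches in capitals on either strand (TTCAAA and ATTGG are the reverse complements).
Top2a: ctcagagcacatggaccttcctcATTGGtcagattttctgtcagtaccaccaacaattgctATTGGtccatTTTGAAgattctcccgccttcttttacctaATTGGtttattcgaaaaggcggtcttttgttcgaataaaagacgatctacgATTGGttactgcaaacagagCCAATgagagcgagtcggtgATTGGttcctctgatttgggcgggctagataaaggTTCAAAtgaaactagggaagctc
A match is a description of the sequence and says nothing about binding in these pups.

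The list of unfolded protein and amino acid genes also had mostly lower means in MSS. This response raises chaperones of the endoplasmic reticulum when proteins misfold there, and enzymes that make serine, glycine and proline when amino acids are short. Of 22 measured genes, 17 had the lower mean in MSS (77.3%, against 51.4% of all genes and 60.3% of those with a mean of at least 6). The median was -0.088. The groups did not overlap in 8, all lower (36.4%, against 5.09% of all genes and 7.30% of those with a mean of at least 6). None passed the adjusted threshold, and 3 had an unadjusted p under 0.05 in limma (13.6%, against 2.22% of all genes). After quantile normalization 16 of 22 were lower, with a median of -0.075, and with the choroid plexus covariate 16 of 22, with a median of -0.056. Without MSS replicates 1 and 2, 14 of 22 were lower with a median of -0.072.

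Among the chaperones, Dnajb9, a co-chaperone of the endoplasmic reticulum, was 7.51, 7.30 and 7.22 in MSS pups, against 7.55, 7.53 and 7.63 in CC pups, with a difference of -0.23 (SE 0.10, 95% interval -0.44 to -0.016). Hspa5, the abundant chaperone BiP, was 10.58, 10.58 and 10.43 in MSS pups, against 10.61, 10.69 and 10.69 in CC pups, with a difference of -0.13 (SE 0.094, 95% interval -0.33 to 0.071). Xbp1, a transcription factor of the response, was 8.76, 8.75 and 8.64 in MSS pups, against 8.77, 8.84 and 8.84 in CC pups, with a difference of -0.10 (SE 0.087, 95% interval -0.28 to 0.088). Of the amino acid enzymes, Aldh18a1, which starts proline synthesis, was 8.26, 8.16 and 8.14 in MSS pups, against 8.33, 8.42 and 8.27 in CC pups, with a difference of -0.15 (SE 0.059, 95% interval -0.28 to -0.028). Mthfd2, of mitochondrial folate metabolism, was 6.15, 6.23 and 6.39 in MSS pups, against 6.41, 6.51 and 6.54 in CC pups, with a difference of -0.23 (SE 0.092, 95% interval -0.43 to -0.031). Phgdh, the first enzyme of serine synthesis, was 7.50, 7.71 and 7.56 in MSS pups, against 7.74, 7.91 and 7.74 in CC pups, with a difference of -0.21 (SE 0.10, 95% interval -0.42 to 0.0021). Among the other transcription factors of the list, Atf4 differed by -0.0015, with a 95% interval of -0.21 to 0.20, Atf3 by -0.087, with an interval of -0.34 to 0.16, and Ddit3 by 0.093, with an interval of -0.11 to 0.30. For Phgdh and Hspa5 the MSM means were below CC as well, by log2 differences of -0.23 and -0.17 from the same CC arrays. Over the whole list the median difference from CC was smaller, at -0.047 in MSM and -0.032 in SSS. In SSM the list median was 0.086, where the median over all genes was 0.062.

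The endoplasmic reticulum stress element, CCAAT and CCACG with 9 bases between them, was found in 3 of 21 promoters of the list (14.3%: Calr, Hsp90b1 and Hspa5), against 0.128% of genes tested, and it contains a CCAAT box. The CARE element, TGATG, any base and AA, to which Atf4 can bind, was in 5 of 21 (23.8%), against 3.14%. The Hspa5 promoter, chr2:34771840-34772089 on the plus strand (GRCm38.p6), carries the element in capitals at bases -65 to -47 from the start.
Hspa5: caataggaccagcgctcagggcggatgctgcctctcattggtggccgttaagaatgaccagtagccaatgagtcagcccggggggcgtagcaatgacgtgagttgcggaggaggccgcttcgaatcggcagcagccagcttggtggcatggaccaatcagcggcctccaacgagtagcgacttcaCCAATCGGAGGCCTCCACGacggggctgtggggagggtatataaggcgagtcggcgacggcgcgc

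**Figure D3:**
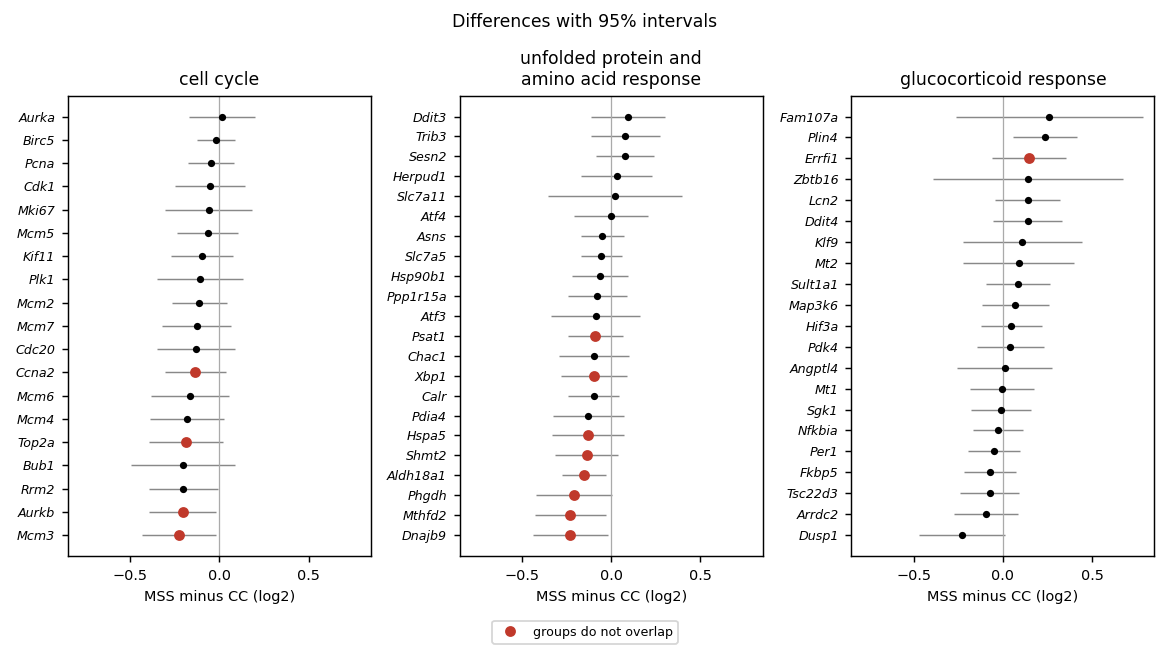
Difference MSS minus CC (log2, horizontal) with its 95% confidence interval for each measured gene of 3 lists, and in red the genes whose arrays do not overlap between groups. 18 of 19 cell cycle and 17 of 22 unfolded protein and amino acid genes lie below 0, while the glucocorticoid response genes lie on both sides.

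Targets of glucocorticoids had no common direction. Of 21 measured genes, 13 had the higher mean in MSS and 8 the lower, with a median of 0.048, or -0.0054 among the 15 with a mean of at least 6. The groups did not overlap in 1 gene (4.76%, against 9.41% of all genes), Errfi1, an inhibitor of the EGF receptor, at a difference of 0.15 (95% interval -0.061 to 0.35). Plin4, a coat protein of lipid droplets, was 5.58, 5.60 and 5.79 in MSS pups, against 5.58, 5.42 and 5.26 in CC pups. MSS replicate 1 was just under CC replicate 1, and the fit gave a difference of 0.24 (SE 0.085, 95% interval 0.057 to 0.42). Fkbp5, the receptor's co-chaperone and a sensitive target, was 7.74, 7.54 and 7.68 in MSS pups, against 7.79, 7.71 and 7.67 in CC pups. The difference was -0.071, with a 95% interval of -0.22 to 0.073. Dusp1, a phosphatase that switches off MAP kinases, was 7.79, 7.64 and 7.37 in MSS pups, against 7.61, 7.88 and 7.99 in CC pups, with a difference of -0.23 (SE 0.11, 95% interval -0.47 to 0.013), and MSS replicate 1 was above the lowest CC array.

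The receptors and hormones of the axis were also without a call. In the list of corticosteroid, corticotropin, vasopressin and oxytocin genes, 10 of 19 had the higher mean in MSS, 0 had an unadjusted p under 0.05 in limma, 0 passed the adjusted threshold, and 0 had groups that did not overlap. Nr3c1, the glucocorticoid receptor, was 7.86, 7.84 and 7.73 in MSS pups, against 7.84, 7.84 and 7.80 in CC pups, with a difference of -0.018 and a 95% interval of -0.14 to 0.11, and its sign turned under quantile normalization, at 0.0027. The mineralocorticoid receptor gene Nr3c2 had a far wider interval, -0.56 to 0.89. Crh, the corticotropin-releasing hormone, differed by -0.090, with an interval of -0.31 to 0.13.

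Immediate early genes were without a call or a stable direction. Of 20 measured, 13 had the higher mean in MSS, with a median of 0.046, and in 3 the groups did not overlap (15%, against 9.41% of all genes), all 3 higher. Without CC replicate 1 the median was -0.014 and 11 of 20 were lower, and without MSS replicate 1 it was 0.0019 with 10 of 20 lower. Fosb, a subunit of the AP-1 factor that lasts after activity, was 5.28, 5.20 and 5.22 in MSS pups, against 4.99, 5.12 and 4.99 in CC pups, with a difference of 0.20 (SE 0.10, 95% interval -0.0062 to 0.41). Egr4 was 6.58, 6.64 and 6.76 in MSS pups, against 6.55, 6.56 and 6.56 in CC pups, a difference of 0.10. Junb was 6.13, 6.07 and 6.04 in MSS pups, against 6.01, 6.01 and 6.01 in CC pups, a difference of 0.067. Bdnf, the activity-dependent neurotrophin, differed by 0.093, with an interval of -0.16 to 0.35.

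Dbp, an output gene of the circadian clock, was 7.74, 7.80 and 7.87 in MSS pups, against 8.06, 8.16 and 7.98 in CC pups. All MSS arrays were lower, with a difference of -0.27 (SE 0.091, 95% interval -0.46 to -0.070). Relative to the mean of MSM, SSS and SSM the difference was -0.43 (SE 0.075). The other clock genes were divided, 6 of 16 members of that list having the higher mean in MSS. Arntl, the clock activator that runs opposite to Dbp over the day, was 7.74, 7.65 and 7.63 in MSS pups, against 7.58, 7.59 and 7.57 in CC pups, with a difference of 0.093 (SE 0.056, 95% interval -0.027 to 0.21). The sources used here give no time of day for the dissections, so its part was not tested.

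Synaptic genes had mostly higher means. Of 18 measured genes of the synapse and vesicle release list, 14 were higher in MSS (77.8%, against 48.6% of all genes and 39.7% of those with a mean of at least 6). The median was 0.064. The groups did not overlap in 1 (5.56%, against 9.41% of all genes), the postsynaptic scaffold gene Shank1, at a difference of 0.12 (95% interval -0.11 to 0.34). Without MSS replicates 1 and 2 the median was 0.015 with 7 of 18 lower, and with the choroid plexus covariate it was 0.030 with 4 of 18 lower. Pclo, a scaffold of the presynaptic active zone, was 8.80, 8.67 and 8.45 in MSS pups, against 8.48, 8.13 and 8.44 in CC pups, with a difference of 0.29 (SE 0.11, 95% interval 0.051 to 0.53). MSS replicate 3 lay below the highest CC array. Nlgn1, a postsynaptic adhesion protein, was 9.32, 9.20 and 9.17 in MSS pups, against 9.00, 9.08 and 9.18 in CC pups, with a difference of 0.15 (SE 0.060, 95% interval 0.019 to 0.27). The list of glutamatergic neuron and hippocampal subfield genes was divided, with 10 of 17 higher and 7 lower in MSS and a median of 0.060. In limma 0 of them had an unadjusted p under 0.05, and the groups did not overlap in 2 (11.8%, against 9.41% of all genes). One of that list, Zbtb20, a transcription factor needed for hippocampal neuron identity, was 9.60, 9.58 and 9.55 in MSS pups, against 9.42, 9.33 and 8.88 in CC pups. Its groups did not overlap, yet its spread over all groups was wide, with a difference of 0.36 (SE 0.27, 95% interval -0.21 to 0.94).

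MicroRNAs of the imprinted Dlk1 to Dio3 cluster on chromosome 12 differed in both directions. From the maternal chromosome the cluster expresses long non-coding RNAs, Meg3 and Rian among them, with many microRNAs that are abundant in brain. Of 42 measured genes, 27 had the higher mean in MSS, the groups did not overlap in 9 (21.4%, against 9.41% of all genes), 5 higher and 4 lower, and the median was 0.036. Of these genes 37 were microRNAs, of which 25 had the higher mean, and their groups did not overlap in 5 higher and 3 lower (21.6%). The count rested on single arrays: without CC replicate 2 the median was -0.019 with 24 of 42 lower, and without MSS replicates 1 and 2 it was -0.041 with 26 lower. With the choroid plexus covariate it was 0.0030 with 20 lower. Among the 263 microRNA genes elsewhere, 164 had the higher mean as well, with a median of 0.024.

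In limma 5 of the 42 cluster genes had an unadjusted p under 0.05 (11.9%, against 2.22% of all genes), and 0 passed the adjusted threshold. The mature microRNAs of these 5 genes are printed from RefSeq (GRCm38.p6), with the seed, bases 2 to 8, in capitals, because the seed decides which messages a microRNA can pair with. The array gives 1 value per gene, so both arms are shown. Mir380, Mir323 and Mir679 had the higher mean in MSS.
mmu-miR-380-5p: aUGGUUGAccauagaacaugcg
mmu-miR-380-3p: uAUGUAGUaugguccacaucuu
mmu-miR-323-5p: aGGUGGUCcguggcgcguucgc
mmu-miR-323-3p: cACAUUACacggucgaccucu
mmu-miR-679-5p: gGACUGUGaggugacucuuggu
mmu-miR-679-3p: aGCAAGGUccuccucacaguag
Mir369 and Mir409 had the lower mean.
mmu-miR-369-5p: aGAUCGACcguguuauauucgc
mmu-miR-369-3p: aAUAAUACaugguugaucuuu
mmu-miR-409-5p: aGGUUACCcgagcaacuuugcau
mmu-miR-409-3p: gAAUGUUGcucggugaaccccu
No 2 of these 10 sequences share a seed.

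Mir380, at chr12:109711803-109711863 on the plus strand, was 5.64, 5.78 and 5.32 in MSS pups, against 5.21, 4.75 and 5.20 in CC pups, with a difference of 0.52 (SE 0.14, 95% interval 0.22 to 0.82). CC replicate 2 was lowest. Mir323, at chr12:109712508-109712593, was 5.71, 5.43 and 5.52 in MSS pups, against 5.32, 5.12 and 5.19 in CC pups, with a difference of 0.34 (SE 0.12, 95% interval 0.086 to 0.59). Mir679, at chr12:109715577-109715650, was 8.53, 8.48 and 8.43 in MSS pups, against 8.12, 7.76 and 8.12 in CC pups, with a difference of 0.48 (SE 0.19, 95% interval 0.073 to 0.88). Mir369, at chr12:109743418-109743496, was 4.74, 4.54 and 4.67 in MSS pups, against 4.99, 4.94 and 5.13 in CC pups, with a difference of -0.37 (SE 0.14, 95% interval -0.68 to -0.067). Mir409, at chr12:109743158-109743236, was 5.43, 5.29 and 5.35 in MSS pups, against 5.72, 5.44 and 6.01 in CC pups, with a difference of -0.37 (SE 0.15, 95% interval -0.68 to -0.056). Signals were dim: Mir380, Mir323 and Mir369 lay under 6 on all 6 arrays, and Mir409 on all but CC replicate 3. On the MSS arrays Mir369 was also under 4.76, the 95th percentile of the means of 1027 olfactory receptor genes. In MSM pups, which carry the same SS number as MSS, the differences from the same CC arrays were 0.42 for Mir380, 0.31 for Mir679 and -0.29 for Mir369. In SSS pups they were -0.33, -0.25 and -0.35 in the same order of genes. The host transcript Meg3 was 12.18, 12.11 and 11.93 in MSS pups, against 12.13, 11.71 and 12.05 in CC pups, with a difference of 0.11 (SE 0.19, 95% interval -0.30 to 0.52).

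**Figure D4:**
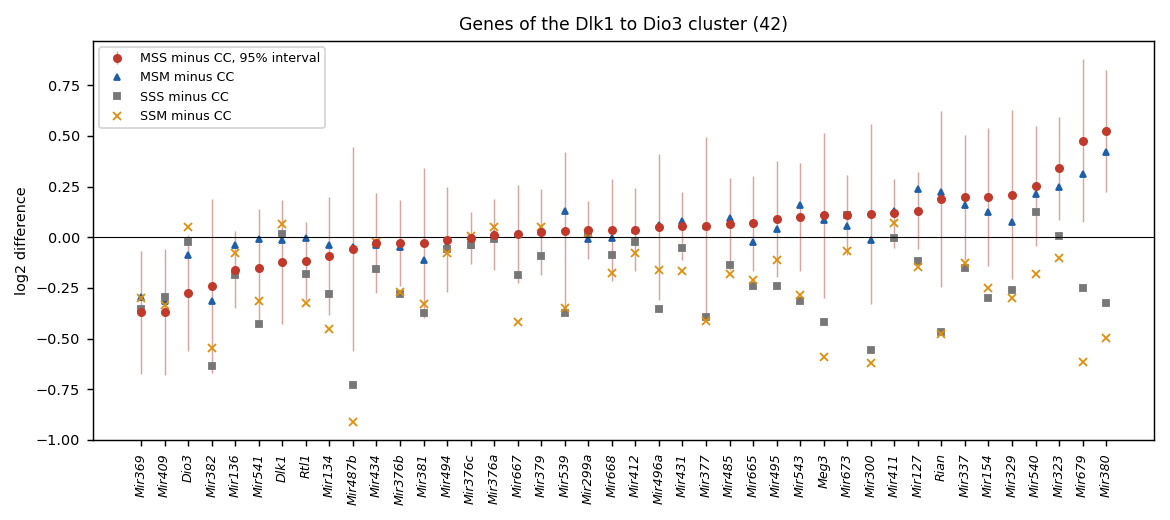
Log2 difference from CC (vertical) of 42 genes of the Dlk1 to Dio3 cluster, ordered by the MSS difference, with its 95% confidence interval, and the differences of MSM, SSS and SSM from the same 3 CC arrays. Mir380 and Mir679 lie at 0.52 and 0.48 in MSS, and Mir369 at -0.37.

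Another microRNA gene, Mir330 on chromosome 7, was passed over by the naming rule and is given because it had one of the smaller p-values. It was 5.40, 5.35 and 5.40 in MSS pups, against 5.14, 5.01 and 5.15 in CC pups, with a difference of 0.28 (SE 0.068, 95% interval 0.13 to 0.42).

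Of the lists for bordering tissue, choroid plexus and striatum were lower in MSS throughout. All 17 measured choroid plexus genes had the lower mean in MSS, with a median of -0.40 and 0 genes whose groups did not overlap. Ttr had a difference of -2.43 (SE 1.02, 95% interval -4.60 to -0.26). Clic6, a chloride channel of the plexus epithelium, was 4.59, 4.82 and 7.18 in MSS pups, against 6.50, 7.21 and 6.79 in CC pups, with a difference of -1.30 (SE 0.70, 95% interval -2.79 to 0.18). Aqp1, its water channel, was 5.55, 5.77 and 7.15 in MSS pups, against 6.56, 7.06 and 6.95 in CC pups, with a difference of -0.70 (SE 0.45, 95% interval -1.66 to 0.26). Folr1, its folate receptor, was 5.85, 5.81 and 7.53 in MSS pups, against 6.68, 7.31 and 7.16 in CC pups, with a difference of -0.65 (SE 0.47, 95% interval -1.66 to 0.35). Kcnj13, Sostdc1 and Otx2 differed by -1.14, -0.70 and -0.62. Cldn2, Calml4, Tmem72, Kcne2 and Col8a1 lay from -0.44 to -0.32. The other 5, Slc4a5, Kl, Steap1, Ace and F5, lay from -0.19 to -0.067. The list's mean was 5.51, 5.37 and 6.66 in MSS pups, against 6.18, 6.66 and 6.47 in CC pups. Without MSS replicates 1 and 2 the median was 0.22 and 1 of 17 was lower.

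Likewise all 13 striatum genes had the lower mean in MSS, with a median of -0.30, and 0 had groups that did not overlap. Without CC replicate 1 the median was 0.083 and 2 of 13 were lower. Drd1, a dopamine receptor of striatal neurons, was 6.57, 6.53 and 6.97 in MSS pups, against 7.97, 6.57 and 6.74 in CC pups, and Tac1, the substance P precursor, was 6.40, 6.04 and 6.44 in MSS pups, against 7.79, 6.28 and 6.41 in CC pups. Thalamus genes were lower in 4 of 14, with a median of 0.11, which was -0.046 without MSS replicate 3. Meningeal genes were lower in 10 of 16, with a median of -0.036, which was 0.11 without MSS replicate 2 and 0.12 without CC replicate 2.

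**Figure D5:**
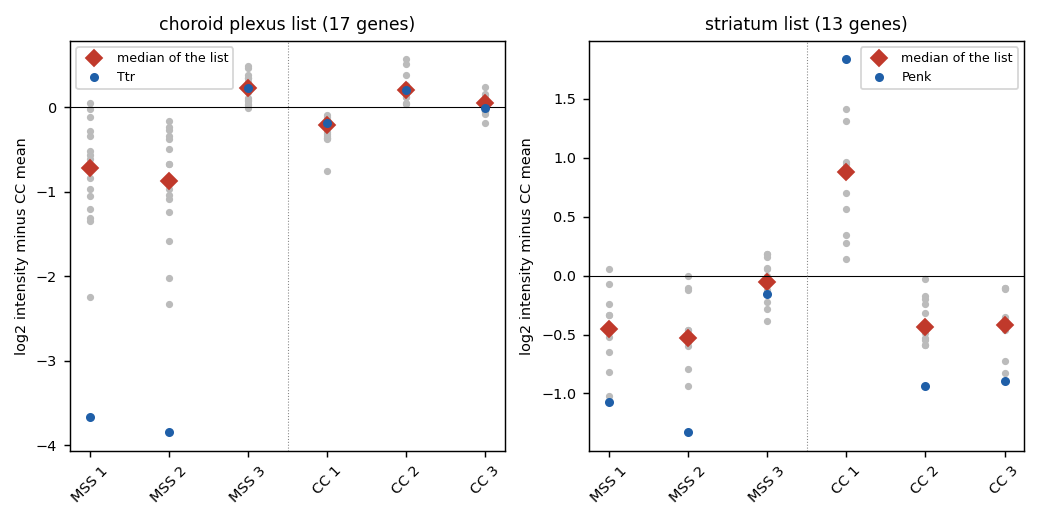
Log2 intensity minus the CC mean (vertical) of each of 17 choroid plexus (left) and 13 striatum genes (right) on the 3 MSS and 3 CC arrays, with the median of the list (diamonds). MSS replicates 1 and 2 are low for choroid plexus and CC replicate 1 is high for striatum.

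Cell type lists of the hippocampus itself had medians near 0, several of which turned on single arrays. The astrocyte list had 10 of 15 genes higher and a median of 0.028, microglia 5 of 15 and -0.030, oligodendrocyte precursors 7 of 13 and 0.019, myelin 8 of 15 and 0.0036, and interneurons 6 of 17 and -0.025. The endothelial list had 5 of 15 genes higher, with a median of -0.0083. Without CC replicate 1 the oligodendrocyte precursor median was 0.19 with 0 of 13 lower, and without CC replicate 3 it was -0.071 with 11 of 13 lower. The myelin median was 0.19 without MSS replicates 1 and 2, and with 1 array left out it ran from -0.10 to 0.11. Over the same fits the endothelial median ran from -0.055 to 0.041, microglia from -0.081 to 0.033, astrocytes from -0.022 to 0.076 and interneurons from -0.072 to 0.00056. Pecam1, an adhesion protein between endothelial cells, was 6.38, 6.24 and 6.37 in MSS pups, against 6.47, 6.61 and 6.38 in CC pups, with a difference of -0.16 (SE 0.069, 95% interval -0.30 to -0.0090). Abcb1a, the drug efflux pump of brain capillaries, was 7.89, 7.57 and 7.64 in MSS pups, against 7.46, 7.54 and 7.53 in CC pups, with a difference of 0.19 (SE 0.085, 95% interval 0.0083 to 0.37).

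MSS was finally set against the other groups. The mean of MSM, SSS and SSM shares no array with CC, but the same 3 MSS arrays enter both comparisons. Genes picked for their MSS values are therefore not tested anew against that mean. MSS minus that mean gave 0 genes past the threshold in limma (smallest adjusted p = 0.468). At an unadjusted p under 0.05 in limma there were 1112 genes (5.58%), 269 higher and 843 lower in MSS. SSM replicate 3, whose median over genes was 6.39 against 6.22 to 6.27 on the other 14 arrays, weighed on that split: without it there were 605 higher and 738 lower. After quantile normalization there were 709 higher and 527 lower. MSM minus MSS, which tests whether morphine altered the difference from CC under mild stress, gave 0 past the threshold and 513 at an unadjusted p under 0.05 (2.57%).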

How the data were processed

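The authors deposited 1 table of log2 intensities for the 15 arrays, made with RMA (background correction, quantile normalization and probe summary), per the submitters' processing notes; the sources used here name neither the software nor a version. All columns matched a sample, with 0 left unused, and the table was used as deposited. The platform annotation names 23410 of the 35557 probe sets: 21789 with 1 symbol, 1621 with several, and 12147 are unnamed here. Of 19938 genes, 19919 matched RefSeq (GRCm38.p6).

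Genes were fitted with limma 3.58.1 in R 4.3.3 (a mean per group over all 15 arrays, 10 residual and 4.61 prior degrees of freedom, eBayes, two-sided, Benjamini-Hochberg over 19938 genes, threshold 0.05). The median SE of a difference was 0.081, and the number of arrays limits the precision. The 32 gene lists (583 members, 528 measured, 2 through older symbols) and the compared groups were chosen with earlier results of these data known. Named were genes with the smallest p and groups that do not overlap, 15 per direction, up to 4 per list by smallest p (with further members named for their role), and every measured choroid plexus gene; small RNAs, vomeronasal and olfactory receptors, RIKEN clones and predicted genes were passed over, except microRNAs of the Dlk1 to Dio3 list. Alternatives were the array set, scaling, filter on dim genes (mean of at least 6), probe sets, eBayes options, a choroid plexus covariate and arrays left out. Replicates were numbered within a group by order only.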

Additional observations from a re-analysis of the deposited data

How the results depend on the processing

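The count of genes past the threshold, 0, was kept by every alternative run except leaving out CC replicate 3, which gave 1 (Galntl6, 0.806), so the range over single arrays left out was 0 to 1. The cause was not tested. None of the 30 named genes passed the threshold in an alternative. They kept their direction in 494 of 494 alternative values. As they were picked for groups that do not overlap, leaving out arrays could not turn their sign. The count at an unadjusted p under 0.05, 442 of 19938 genes, was 845 with the 6 arrays alone, 686 with quantile normalization and 664 with arrays centred on their median. It was 279 with the choroid plexus covariate and 774 without SSM replicate 3 (chosen after seeing the data). Where the number tested differed, the count was 264 of 10590 genes with a mean of at least 6 and 1062 of 35557 probe sets. For MSM minus MSS, 513, it was 772 with quantile normalization and 773 with arrays centred on their median. Without MSS replicates 1 and 2 the median was -0.0281 for the cell cycle list and 0.221 for the choroid plexus list, and signs turned for Cry1 (0.126), Meg3 (-0.0363), Rian (-0.0899), Ttr (0.221), Clic6 (0.346), Folr1 (0.484) and Aqp1 (0.295). Without CC replicate 1 the cholesterol synthesis median was -0.112, against -0.048, and signs turned for Penk (0.0656), Drd1 (0.0406) and Drd2 (0.112). Further turned signs were Nr3c1 with quantile normalization (0.00273) and without MSS replicate 3 (0.0223), Meg3 without CC replicate 2 (-0.0208) and Folr1 with the choroid plexus covariate (0.0807). With 1 array of 6 left out, list medians ran from -0.162 to -0.0813 for cell cycle, -0.0992 to -0.0726 for unfolded protein and amino acid response, -0.698 to -0.253 for choroid plexus, -0.514 to 0.0832 for striatum, -0.0189 to 0.07 for Dlk1 to Dio3, 0.0494 to 0.0799 for synapse, 0.0207 to 0.0675 for glucocorticoid response and -0.112 to -0.0311 for cholesterol synthesis. Over the same fits Nr3c1 ran from -0.0427 to 0.0223, Penk from -1.32 to 0.0656, Drd1 from -0.662 to 0.0406, Drd2 from -0.905 to 0.112 and Meg3 from -0.0208 to 0.193. Of 120 alternative medians of these 8 lists, 6 changed sign. Fits that leave MSS with 1 array assume that it varies like the other groups. No paired analysis was possible because the H numbers in the titles, 4 to 6 for MSS and 1 to 3 for CC, are not shared by the groups.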

Other observations

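Housekeeping families counted by symbol, chosen after seeing the data, had mostly lower means in MSS, and the counts changed with the scaling. Of 77 mitochondrial ribosome genes, 55 had the lower mean in MSS (median -0.028) and 10 had groups that did not overlap, all lower (13%, against 9.41% of all genes). Of 81 respiratory chain genes, 52 were lower (64.2%, median -0.028) and 16 had groups that did not overlap (19.8%, 12 lower, 4 higher). Of 50 proteasome genes, 37 were lower (74%, median -0.037), and 7 had groups that did not overlap (14%, 6 lower, 1 higher). Among all genes with means of 7 to 8, 8 to 9 and 9 to 10, 60.6%, 61.6% and 63.6% were lower. Groups did not overlap in 9.29%, 10.7% and 12.2% of these genes. None passed the adjusted threshold. Mrps16, of the small subunit of the mitochondrial ribosome, averaged 8.05 ± 0.13 in MSS pups and 8.29 ± 0.11 in CC pups (SD, n = 3 each), a difference of -0.24. After quantile normalization the lower counts were 43 of 77 (median -0.014), 42 of 81 (median -0.0053) and 30 of 50 (median -0.021), nearer to an even split in each family. That scaling moves bright genes as a whole toward an even split. With each array centred on its median the lower counts were 51 of 77, 48 of 81 and 35 of 50. The cause was not tested.

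Of 18 hypoxia and glycolysis genes, 14 had the lower mean in MSS (77.8%, median -0.061), as did 14 of 16 cholesterol synthesis genes (87.5%, median -0.048). In either list 0 passed the adjusted threshold. Of 19 splicing kinase and splicing regulator genes, 15 had the higher mean (78.9%, median 0.054, or 0.015 without CC replicate 2 and 0.13 without CC replicate 1). Of all genes with a mean of at least 6, 60.3% had the lower and 39.7% the higher mean in MSS. After quantile normalization 14 of 18 hypoxia and glycolysis genes were lower and 13 of 16 cholesterol synthesis genes.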
